A study of Mus musculus with 23 samples.

Results

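The tumour necrosis factor (TNF) superfamily was followed through 10 genes, chosen by name as rows of the 3 deposited count tables: the ligands Tnf, Ltb, Tnfsf10 and Tnfsf15, and the receptors Tnfrsf1a, Tnfrsf1b, Tnfrsf11b, Tnfrsf12a, Fas and Cd40. They are 10 of the 41073 genes read from those tables, and all 10 passed the filter on low counts in each comparison. The choice was made with earlier results of these data known. The RNA came from lung epithelial cells selected for the surface protein EpCAM, labelled airway epithelial cells, from C57BL/6 wild type mice, and grown on porous inserts that are exposed to air on one side from airlift on. Cultures exposed to NTHi (nontypeable Haemophilus influenzae, a bacterium of the human airway) were taken at day 4 (7 libraries). They were set against untreated day 4 cultures (7 libraries), and the untreated course also held cultures on the day of airlift, before exposure (6 libraries), and freshly isolated cells (3 libraries). Every group was present in each of 3 experiments, A, B and C, which the labels call batches. All groups share the strain and the EpCAM selection. The labels give no age, NTHi dose or length of exposure, and do not say whether libraries of 1 group came from different animals or wells. The p-values therefore rest on the spread among these libraries alone, which may be technical.

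TNF superfamily ligands are made as trimers in the cell membrane, and several are also released by cleavage. Their receptors fall into those with a death domain, which can start caspase-driven cell death or NF-kB signalling, those without one, which recruit TRAF adaptors, and decoys that hold a ligand without signalling. In airway epithelium TNF is a known trigger of cytokine and chemokine production, and macrophages are a known source of TNF in the lung.

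Libraries held 32323375 to 39081663 counts each. All 8 epithelial markers were detected in every group, and Epcam averaged 529 ± 33.4 CPM (counts scaled to the size of the library) in NTHi cultures and 420 ± 40.3 CPM in control cultures (SD, n = 7 each). Markers of other cell types were also present: the 15 macrophage markers summed to 1338 to 4821 CPM in NTHi cultures and 6110 to 13198 CPM in control cultures, and none was at 0 in a whole group. Lyz2, which alveolar type 2 cells also express, made up most of both sums. It averaged 2703 CPM with NTHi and 8328 CPM in controls. NTHi replicate 3 and control replicate 1 of experiment C stood apart from the other day 4 libraries on the second principal component, and they held the lowest macrophage sum of their groups. In bulk RNA, fewer cells of a type and less RNA per cell cannot be told apart.

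Start regions of 6 members are shown to set some of the genes that moved with NTHi (Tnf, Ltb, Tnfsf10, Tnfrsf1b and Fas) beside 1 that was not called (Tnfsf15). Of the 10 members, 8 were matched by symbol to RefSeq promoters of the build GRCm38.p6, which run from 250 bases before to 50 bases after the gene start. Tnfrsf11b and Cd40, both called higher with NTHi, were not matched, so the motif counts leave them out. The windows lie at chr17:35201958-35202257 on the minus strand for Tnf, chr17:35194257-35194556 on the plus strand for Ltb, chr3:27316827-27317126 on the plus strand for Tnfsf10, chr4:145246821-145247120 on the minus strand for Tnfrsf1b, chr19:34290409-34290708 on the plus strand for Fas and chr4:63745010-63745309 on the minus strand for Tnfsf15. They are written 5′ to 3′ along the gene, with matches to 4 searched motifs in capitals.
Tnf: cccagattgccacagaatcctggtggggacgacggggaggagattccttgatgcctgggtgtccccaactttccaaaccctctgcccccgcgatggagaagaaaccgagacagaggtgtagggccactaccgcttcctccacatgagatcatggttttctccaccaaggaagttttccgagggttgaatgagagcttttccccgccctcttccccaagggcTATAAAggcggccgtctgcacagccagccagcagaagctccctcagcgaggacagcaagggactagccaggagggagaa
Ltb: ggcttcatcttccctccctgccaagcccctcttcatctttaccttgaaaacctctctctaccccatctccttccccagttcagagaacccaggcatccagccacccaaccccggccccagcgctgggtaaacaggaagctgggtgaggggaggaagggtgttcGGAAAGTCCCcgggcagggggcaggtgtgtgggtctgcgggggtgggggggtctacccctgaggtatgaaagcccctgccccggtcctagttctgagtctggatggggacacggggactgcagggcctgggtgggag
Tnfsf10: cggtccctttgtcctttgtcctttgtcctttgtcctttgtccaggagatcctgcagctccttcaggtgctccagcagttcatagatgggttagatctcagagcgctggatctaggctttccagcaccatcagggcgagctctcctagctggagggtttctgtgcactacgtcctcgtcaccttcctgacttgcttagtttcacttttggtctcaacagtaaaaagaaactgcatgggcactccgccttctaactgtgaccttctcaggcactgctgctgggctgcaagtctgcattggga
Tnfrsf1b: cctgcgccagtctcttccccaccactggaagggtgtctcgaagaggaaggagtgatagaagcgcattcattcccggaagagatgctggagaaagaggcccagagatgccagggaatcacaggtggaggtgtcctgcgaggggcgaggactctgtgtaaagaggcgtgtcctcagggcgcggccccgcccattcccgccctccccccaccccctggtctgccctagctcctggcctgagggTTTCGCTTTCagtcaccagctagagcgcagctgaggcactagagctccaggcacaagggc
Fas: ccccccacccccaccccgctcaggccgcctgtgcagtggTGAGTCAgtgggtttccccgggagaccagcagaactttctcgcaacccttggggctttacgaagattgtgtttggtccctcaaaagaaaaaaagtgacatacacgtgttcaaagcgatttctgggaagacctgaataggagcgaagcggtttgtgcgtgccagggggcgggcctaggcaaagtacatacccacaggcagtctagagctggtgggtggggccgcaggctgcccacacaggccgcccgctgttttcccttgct
Tnfsf15: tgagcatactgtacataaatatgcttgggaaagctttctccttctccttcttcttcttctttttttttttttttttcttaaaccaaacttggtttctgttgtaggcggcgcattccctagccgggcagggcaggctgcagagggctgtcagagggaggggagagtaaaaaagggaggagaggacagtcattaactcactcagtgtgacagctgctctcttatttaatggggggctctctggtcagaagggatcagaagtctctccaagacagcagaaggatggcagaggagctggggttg

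The motifs were searched on both strands of each window. The NF-kB consensus (kappaB) was found in 1 of the 8 member windows, that of Ltb, where GGAAAGTCCC began 87 bases before the start; it occurs in 4.51% of the 32851 RefSeq windows of that length. The interferon-stimulated element, read here as GAAA, any 2 bases and GAAA again, was found in Tnfrsf1b alone among the 8, as its reverse complement TTTCGCTTTC beginning 10 bases before the start, against 3.44% of all windows. The AP-1 site TGANTCA lay in the Fas window 211 bases before the start (7.81% of all windows), and the TATA box TATAAA lay in the Tnf window 29 bases before the start (13.6% of all windows). The windows of Tnfsf10 and Tnfsf15 held none of these letters. Those of Tnfrsf1a (called higher with NTHi) and Tnfrsf12a (not called), which are not shown, held none either. These matches describe sequence and do not show that a factor binds there.

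With NTHi, 8 of the 10 members rose at day 4, none fell and 2 were not called, while 40.5% of the 16337 genes tested were called in either direction and 20.1% were called higher and 20.4% lower. The 2 members with the largest log2 fold changes were Tnfsf10, the death ligand TRAIL, and Tnfrsf11b, the decoy receptor osteoprotegerin. The median log2 fold change of NTHi over control was 0.92 over the 10 members and -0.00013 over all genes tested. For 7 of the 8 members that rose, the 7 NTHi libraries and the 7 control libraries did not overlap. The share of all genes tested that separated in this way was not computed, so this count is a description only. Tests were edgeR quasi-likelihood F-tests with a term for experiment, and a gene was called when its adjusted p (Benjamini-Hochberg) was under 0.05.

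**Figure D1:**
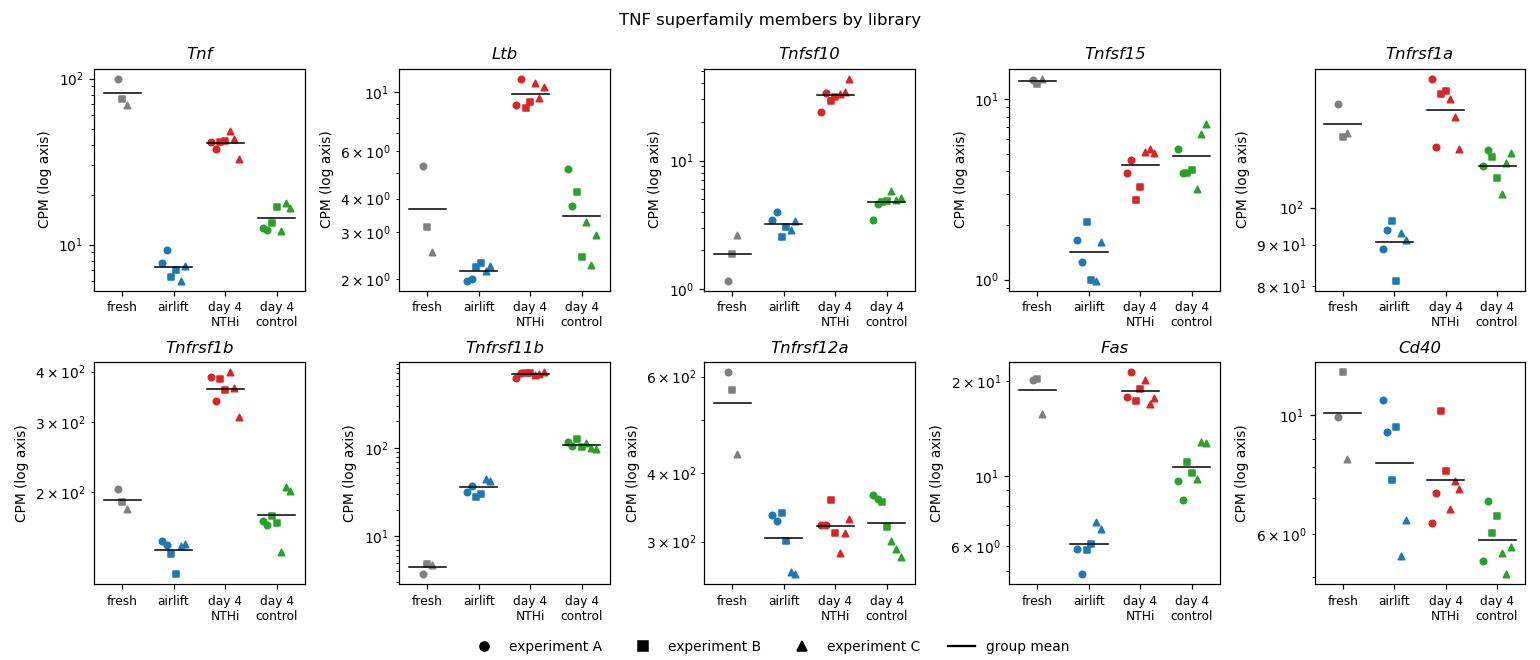
CPM of each member in every library on log axes, 1 panel a gene, with fresh cells, airlift, day 4 NTHi and day 4 control from left to right, a symbol for each experiment and a line at the group mean. Ltb, Tnfsf10, Tnfrsf1b and Tnfrsf11b were higher in all 7 NTHi libraries than in any library of the other groups. Tnf, Tnfsf15 and Tnfrsf12a were higher in all 3 fresh libraries than in any other library.

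Among the ligands, Tnf, the inflammatory cytokine that binds Tnfrsf1a and Tnfrsf1b, had 32.8 CPM at the lowest, 41.5 at the median and 48.6 at the highest in the NTHi libraries, against 12.2, 13.4 and 17.8 CPM in the control libraries. Every NTHi library was above every control library. The means were 41.0 ± 4.88 CPM with NTHi and 14.5 ± 2.48 CPM in controls (SD, n = 7 each), a log2 fold change of 1.501 ± 0.10 (SE; edgeR adjusted p = 1.5e-08), with 1.67, 1.46 and 1.41 within experiments A, B and C, from a fit with an interaction term. Macrophages are a known source of Tnf, and 12 of the 15 macrophage markers fell with NTHi, 1 rose (Adgre1, 1.19) and 2 were not called. Of the 9 neutrophil markers, 6 were tested, of which 4 rose and 1 fell. Of all genes tested, 20.1% were called higher and 20.4% lower. The 9 together summed to 1456 to 2095 CPM with NTHi and 356 to 737 CPM in controls, most of it Ltf, which epithelium also makes. Those that rose were Mmp8 (114 CPM with NTHi and 12.2 CPM in controls on average), S100a8 (14.1 and 2.69 CPM), S100a9 (1.06 and 0.565 CPM) and Ltf (1553 and 535 CPM). Cxcr2 fell, with 0 counts in all 7 NTHi libraries and 0.782 CPM in controls on average, Csf3r was not called, and Ly6g, Retnlg and Camp were too low to be tested. The part of these cells in the levels of Tnf and the other members was not tested.

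Ltb, the membrane ligand that pairs with lymphotoxin alpha and binds Ltbr, ranged from 8.70 to 11.2 CPM (median 9.49) in NTHi libraries and from 2.26 to 5.16 CPM (median 3.26) in control libraries. The groups did not overlap, and the control libraries were widely spread, with experiment A replicate 1 at the top. The mean was 9.82 ± 0.987 CPM with NTHi and 3.43 ± 1.04 CPM in controls (SD, n = 7 each), a log2 fold change of 1.53 ± 0.14 (SE; edgeR adjusted p = 6.7e-07). Lymphocytes are a known source of Ltb, and the 12 lymphocyte markers summed to 11.4 to 27.1 CPM with NTHi and 22.5 to 44.1 CPM in controls. Of 7 tested markers, 0 were higher and 5 lower, beside 20.1% of all genes called higher and 20.4% lower. Ncr1 was at 0 in all NTHi libraries. The part of lymphocytes in the Ltb levels was not tested. Lta, the partner of Ltb, fell to 1.195 ± 0.389 CPM with NTHi, against 2.34 ± 0.759 CPM in controls (SD, n = 7 each; log2 fold change -0.99 ± 0.21, SE; edgeR adjusted p = 0.0012), with overlapping ranges.

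Tnfsf10 (TRAIL) can start cell death through the receptor that mice carry as Tnfrsf10b. It had 24.1 CPM at the lowest, 32.8 at the median and 43.3 at the highest with NTHi, against 3.48, 4.85 and 5.79 CPM in controls. The lowest NTHi library was above the highest control library by more than the whole range of the controls. The mean was 32.6 ± 5.85 CPM with NTHi and 4.78 ± 0.698 CPM in controls (SD, n = 7 each), a log2 fold change of 2.77 ± 0.10 (SE; edgeR adjusted p = 8.4e-12), and the value was 2.84, 2.66 and 2.79 in experiments A, B and C. Tnfrsf10b itself had 40.0 CPM with NTHi and 35.4 CPM in controls on average, a log2 fold change of 0.17 (edgeR adjusted p = 0.012).

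Tnfsf15 (TL1A), the ligand of the death receptor Tnfrsf25, ranged from 2.77 to 5.32 CPM with NTHi and from 3.19 to 7.31 CPM in controls. The ranges overlapped, and the difference was not called (log2 fold change -0.20 ± 0.15, SE; edgeR adjusted p = 0.33). Without control replicate 1 of experiment C, its lowest control library, it was called at -0.32 (edgeR adjusted p = 0.017), and without both libraries that stood apart at -0.30 (edgeR adjusted p = 0.029).

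**Figure D2:**
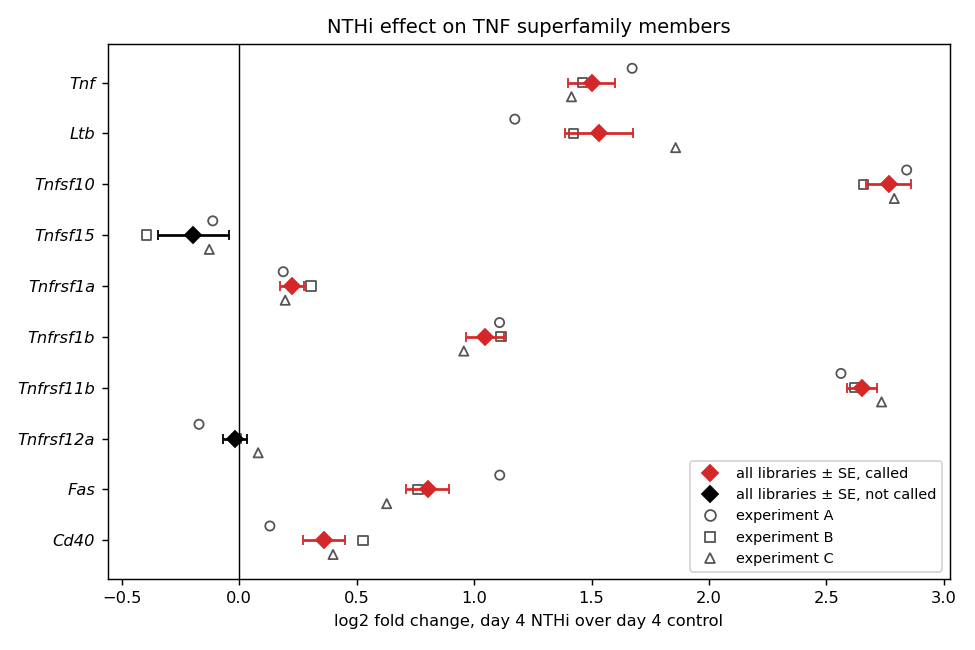
Log2 fold change of day 4 NTHi over day 4 control for each member, with diamonds for all 14 libraries (bars are the SE) and open symbols for the effect within experiments A, B and C from a fit with an interaction term. Tnfsf10 (2.77) and Tnfrsf11b (2.65) lie farthest to the right, and Tnfsf15 and Tnfrsf12a are the 2 members not called.

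Of the receptors with a death domain, Tnfrsf1a (TNF receptor 1, the broadly expressed signalling receptor for TNF) rose by little. It ranged from 118.2 to 144 CPM (median 136) in NTHi libraries and from 104 to 117.8 CPM (median 114) in control libraries, so that the groups touched without overlapping. The means were 132 ± 10.3 CPM with NTHi and 113 ± 4.85 CPM in controls (SD, n = 7 each), a log2 fold change of 0.23 ± 0.05 (SE; edgeR adjusted p = 0.0021). Within experiments A, B and C it was 0.19, 0.31 and 0.20, and none of these was called. Fas, the death receptor for Fas ligand, ranged from 16.9 to 21.3 CPM (median 17.7) with NTHi and from 8.39 to 12.8 CPM (median 10.2) in controls. No library of one group reached the other. Its means were 18.5 ± 1.63 CPM with NTHi and 10.7 ± 1.64 CPM in controls (SD, n = 7 each), a log2 fold change of 0.80 ± 0.09 (SE; edgeR adjusted p = 4.5e-06), with 1.11, 0.76 and 0.63 in experiments A, B and C.

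Of the receptors that recruit TRAF adaptors, Tnfrsf1b (TNF receptor 2, which membrane TNF activates best) had 308 CPM at the lowest, 365 at the median and 398 at the highest with NTHi, against 142, 169.6 and 206 CPM in controls. The groups were separated by a wide gap. The means were 363 ± 31.3 CPM with NTHi and 176 ± 22.1 CPM in controls (SD, n = 7 each), a log2 fold change of 1.05 ± 0.08 (SE; edgeR adjusted p = 8.4e-08). The difference between the log2 fold changes of Tnfrsf1b and Tnfrsf1a was not itself tested.

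Cd40, the receptor for the T cell ligand CD40L, ranged from 6.30 to 10.2 CPM (median 7.28) with NTHi and from 5.06 to 6.90 CPM (median 5.68) in controls. The ranges overlapped, and the highest NTHi value, in experiment B replicate 1, stood well above the next, at 7.85 CPM. The means were 7.57 ± 1.26 CPM with NTHi and 5.86 ± 0.653 CPM in controls (SD, n = 7 each), a log2 fold change of 0.36 ± 0.09 (SE; edgeR adjusted p = 0.0050). Without experiment B it was 0.29 (edgeR adjusted p = 0.055) and without experiment C 0.33 (edgeR adjusted p = 0.064), so that the call was lost. Tnfrsf12a (Fn14), the receptor for TWEAK and known for its rise in injured epithelium, averaged 319.9 ± 21.7 CPM with NTHi and 325 ± 34.8 CPM in controls (SD, n = 7 each). Its ranges overlapped, and the log2 fold change of -0.02 ± 0.05 (SE) was not called (edgeR adjusted p = 0.82).

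Tnfrsf11b (osteoprotegerin) is a secreted decoy that binds RANKL and TRAIL. It had 614 CPM at the lowest, 705 at the median and 718 at the highest with NTHi, against 96.3, 105 and 127 CPM in controls. Each NTHi library held several times the CPM of any control library. The means were 688 ± 35.5 CPM with NTHi and 109 ± 11.02 CPM in controls (SD, n = 7 each), a log2 fold change of 2.65 ± 0.06 (SE; edgeR adjusted p = 2.0e-13), with 2.56, 2.62 and 2.73 in experiments A, B and C. The RANKL gene Tnfsf11 was at 0.372 CPM with NTHi and 0.305 CPM in controls on average, and was not called (edgeR adjusted p = 0.61).

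The NTHi effect had the same sign in all 3 experiments for 9 of the 10 members, the exception being Tnfrsf12a. The 9 include Tnfsf15, which was not called, and the 8 members called from these same libraries. The share of all genes tested with the same sign was not computed, so this count is a description only. A test of whether the effect differed between experiments called no member. By edgeR's quasi-likelihood test it called 0 of 16337 genes, that is 0% of them, with 675 genes at an unadjusted p below 0.05, while without the filter on low counts it called 5 of 28218 genes and DESeq2's likelihood ratio test called 8 genes, none of them a member in either. In the main edgeR fit the smallest unadjusted p among the members was 0.073, for Fas. With scaling by library totals alone Fas was at 0.054, and without the filter Ltb was at 0.042 and Fas at 0.048.

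**Figure D3:**
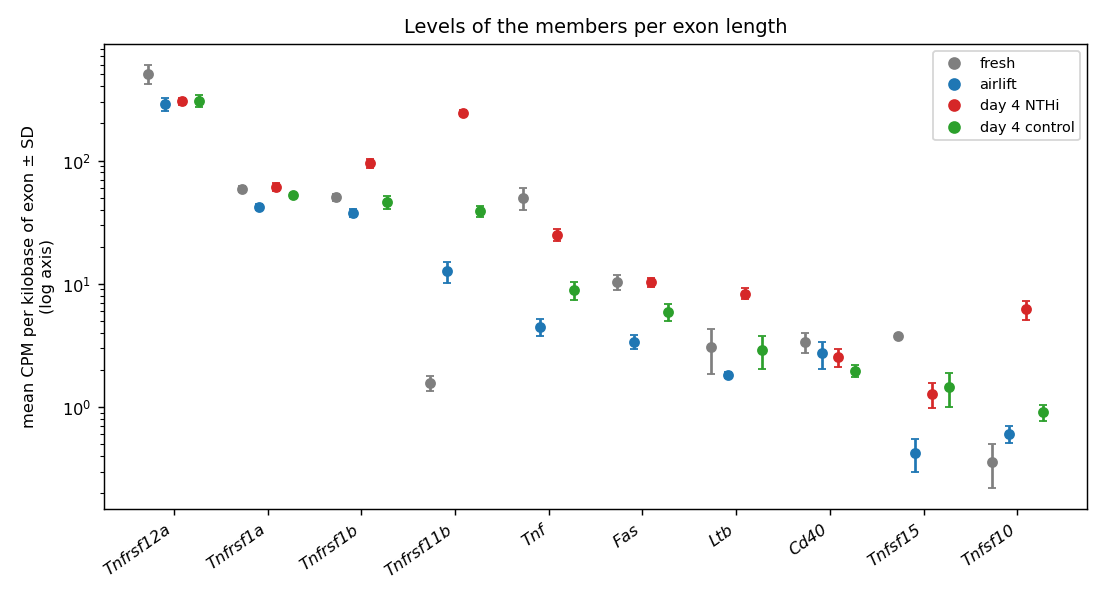
Mean CPM per kilobase of exon in each group (bars are the SD over 3, 6, 7 and 7 libraries for fresh, airlift, NTHi and control; log axis), members ordered by their day 4 control level. Tnfrsf12a was the most abundant member per length in all 4 groups, and Tnfrsf11b ranged from 1.58 in fresh cells to 244 with NTHi.

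Per kilobase of exon (basic transcripts of the GENCODE annotation of GRCm38, merged per gene), Tnfrsf12a stood highest in every group, at 302 ± 20.5 CPM per kilobase with NTHi and 306 ± 32.8 in controls (SD, n = 7 each). Tnfrsf11b followed at 244 ± 12.6 CPM per kilobase with NTHi, against 38.8 ± 3.91 in controls, where it stood below Tnfrsf1a (52.3 ± 2.25) and Tnfrsf1b (46.0 ± 5.79). With NTHi, Tnfrsf1b was at 95.0 ± 8.19 CPM per kilobase and Tnfrsf1a at 61.2 ± 4.76. In control cultures the means of Tnfrsf1a, Tnfrsf1b and Tnfrsf11b lay closer to each other than their summed SDs only for Tnfrsf1a with Tnfrsf1b and Tnfrsf1b with Tnfrsf11b. The ligands were lower than these receptors: Tnf was at 25.02 ± 2.98 CPM per kilobase with NTHi and 8.87 ± 1.51 in controls, and Tnfsf10 at 6.19 ± 1.11 with NTHi and 0.908 ± 0.133 in controls.

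Other genes of the pathway moved to differing extents with NTHi, beside the 40.5% of all genes called. Among 14 other ligands, 10 were tested: 3 rose, 3 fell and 4 were not called, with a median log2 fold change of 0.04. The 3 that rose were Tnfsf9 (4-1BB ligand), at 30.5 ± 3.10 CPM with NTHi and 16.4 ± 2.07 CPM in controls (SD, n = 7 each; log2 fold change 0.89), Tnfsf13b (BAFF, a B cell survival factor; 1.28, with 1.11 CPM with NTHi and 0.448 CPM in controls) and Tnfsf13 (APRIL; 0.64). The ranges of Tnfsf13b overlapped between the groups, and those of Tnfsf9 and Tnfsf13 did not. Among 22 other receptors, 21 were tested: 6 rose, 5 fell and 10 were not called, with a median of 0.02. Tnfrsf9 (4-1BB, the receptor of Tnfsf9) rose to 290.0 ± 76.4 CPM with NTHi, against 128 ± 28.8 CPM in controls (SD, n = 7 each). Its log2 fold change was 1.18 ± 0.19 (SE). The ranges of Tnfrsf9 overlapped, with the lowest NTHi library at 156 CPM and the highest control library at 171 CPM. Tnfrsf11a (RANK, the receptor of RANKL) rose to 28.8 ± 2.38 CPM with NTHi, against 15.5 ± 1.16 CPM in controls (log2 fold change 0.89 ± 0.06). Ngfr (the p75 neurotrophin receptor), at 1.36 ± 0.577 CPM with NTHi and 5.19 ± 1.99 CPM in controls, and Tnfrsf21 (death receptor 6), at 80.7 ± 3.41 CPM with NTHi and 129 ± 15.0 CPM in controls, fell by 1.95 and 0.68 on the log2 scale. Tnfrsf22 and Tnfrsf23 are closely related copies, and how the counting treated reads that they share is not known. With scaling by library totals alone 3 of these receptors were called higher in place of 6.

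Of the 18 adaptors and kinases between receptor and NF-kB, 7 rose, 2 fell and 9 were not called, with a median log2 fold change of 0.05. Birc3, a ubiquitin ligase of the receptor complex, had 146 ± 6.10 CPM with NTHi and 53.0 ± 3.24 CPM in controls (SD, n = 7 each), a log2 fold change of 1.46 ± 0.04 (SE; edgeR adjusted p = 5.5e-13). The next by p were small: Rnf31 (catalytic subunit of the linear ubiquitin complex; 0.36), Traf2 (0.29) and Birc2 (0.34). Of 12 NF-kB subunits and feedback genes, 8 rose, 1 fell and 3 were not called, with a median of 0.35. Tnfaip3 (A20, which ends TNF signalling) had 297 ± 24.3 CPM with NTHi and 102 ± 2.87 CPM in controls (SD, n = 7 each; log2 fold change 1.54 ± 0.05, SE; edgeR adjusted p = 2.0e-12). Nfkbia (the inhibitor IkB alpha) rose by 1.21, Nfkb1 by 0.72 and Nfkbie by 0.54 on the log2 scale. Of 11 death pathway genes, 7 rose, 1 fell and 3 were not called, with a median of 0.22. Among those with the smallest p, Bid (which links death receptors to mitochondria; 0.49), Mlkl (the necroptosis effector; 0.39) and Bak1 (0.18) each rose by less than 0.5. Casp8, the initiator caspase of the death receptors, was at 71.5 CPM with NTHi and 72.7 CPM in controls on average and was not called (edgeR adjusted p = 0.67).

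**Figure D4:**
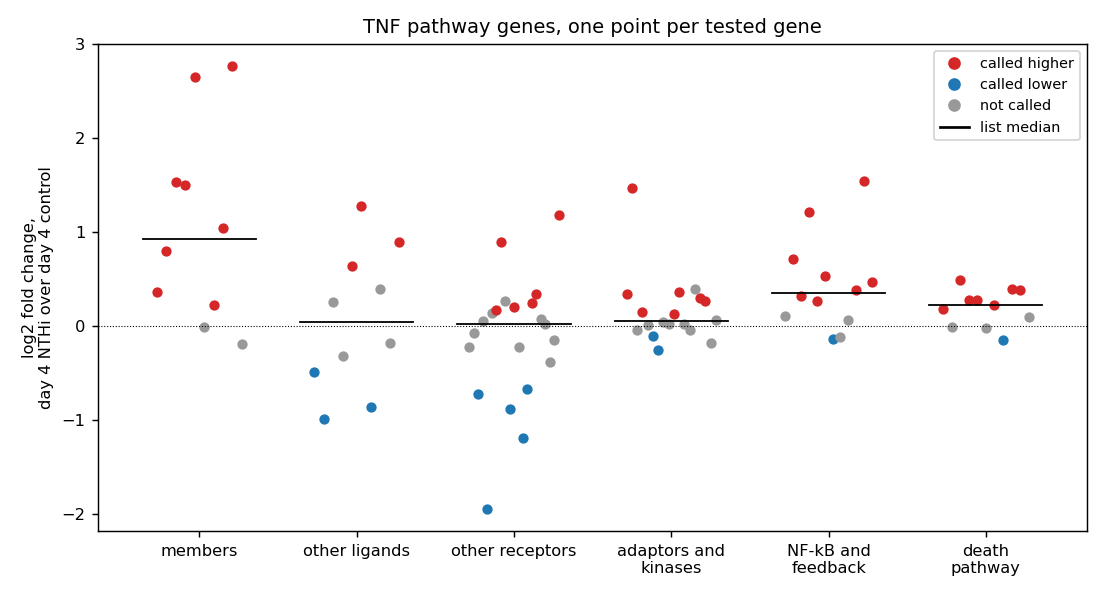
Log2 fold change of day 4 NTHi over day 4 control for each tested gene of the 10 members and of 5 lists of pathway genes, coloured by call, with a line at the list median. The members have the highest median (0.92), and the lists of other ligands and other receptors spread to both sides of 0. Members and lists were chosen with earlier results of these data known, so this rank is a description only.

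In the untreated course the members moved in differing directions after isolation. At airlift 2 members were higher than in fresh cells, 7 lower and 1 not called, while 74.6% of the 18302 genes tested were called (37.9% higher, 36.7% lower). Tnf, Tnfsf15 and Fas had the largest falls, and Tnfrsf11b the largest rise. Between airlift and day 4 control, 9 members rose and 1, Cd40, fell, while 54.5% of genes were called (26.9% higher, 27.7% lower). Over the whole span, day 4 control against fresh cells, 2 members were higher, 6 lower and 2 not called, while 76.6% of genes were called (38.8% higher, 37.7% lower). These comparisons share libraries, so their values are given side by side and not as independent results.

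Tnf had 99.96, 75.3 and 69.7 CPM in the fresh libraries of experiments A, B and C, 6.08 to 9.31 CPM (median 7.21) at airlift and 12.2 to 17.8 CPM (median 13.4) in day 4 controls. The 3 stages did not overlap, and airlift was the lowest. The log2 fold change was -3.46 ± 0.15 for airlift over fresh cells (SE; edgeR adjusted p = 2.6e-13), 0.99 ± 0.13 for day 4 control over airlift (edgeR adjusted p = 3.0e-06) and -2.47 ± 0.14 for day 4 control over fresh cells (edgeR adjusted p = 9.8e-12). The macrophage markers summed to 19290 to 26073 CPM in fresh cells. At airlift they summed to 3427 to 3980 CPM, and in day 4 controls to 6110 to 13198 CPM. Most of this was Lyz2, which alveolar type 2 cells also express. Lyz2 averaged 20975 CPM in fresh cells, 2434 CPM at airlift and 8328 CPM in day 4 controls. Of the 15 markers, 2 rose and 9 fell between fresh cells and airlift, beside 74.6% of all genes called. Between airlift and day 4 control 6 rose and 6 fell, beside 54.5%. Their part in the Tnf levels was not tested. The Tnf level in NTHi cultures, 41.0 CPM on average, stood between that of controls and that of fresh cells, with no overlap on either side.

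Tnfsf15 had 12.8, 12.1 and 13.0 CPM in the fresh libraries of experiments A, B and C, 0.988 to 2.08 CPM (median 1.43) at airlift and 3.19 to 7.31 CPM (median 4.08) in day 4 controls. The stages did not overlap, in the same order as for Tnf. Its log2 fold change was -3.12 ± 0.24 for airlift over fresh cells (SE; edgeR adjusted p = 1.2e-09) and 1.72 ± 0.21 for day 4 control over airlift (edgeR adjusted p = 1.8e-06). Endothelial cells are a known source of Tnfsf15, and the 10 endothelial markers summed to 81.1 to 98.9 CPM in fresh cells, 20.6 to 40.3 CPM at airlift and 26.6 to 46.9 CPM in day 4 controls. Their part in the Tnfsf15 levels was not tested.

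Tnfrsf11b ran the other way. It had 3.72, 4.87 and 4.75 CPM in the fresh libraries of experiments A, B and C, 28.1 to 45.1 CPM (median 34.4) at airlift and 96.3 to 127 CPM (median 105) in day 4 controls, with no overlap between stages. The log2 fold change was 3.01 ± 0.16 for airlift over fresh cells (SE; edgeR adjusted p = 7.3e-12), 1.60 ± 0.10 for day 4 control over airlift (edgeR adjusted p = 2.5e-10) and 4.61 ± 0.17 for day 4 control over fresh cells (edgeR adjusted p = 2.8e-14). Mesenchymal cells are a known source of osteoprotegerin, and the 10 mesenchymal markers summed to 18.6 to 32.6 CPM in fresh cells, 29.6 to 80.1 CPM at airlift and 201 to 504 CPM in day 4 controls. All 9 tested mesenchymal markers rose between airlift and day 4 control. Between the day 4 groups their sums overlapped almost wholly, at 192 to 535 CPM with NTHi and 201 to 504 CPM in controls. Of the 9 tested markers, 2 were higher with NTHi, 3 lower and 4 not called, beside 40.5% of all genes called. Col1a1 alone averaged 170 CPM with NTHi and 156 CPM in controls, Pdgfrb 5.45 and 1.41 CPM, and Dcn 16.6 and 7.30 CPM. The part of mesenchymal cells in the Tnfrsf11b levels was not tested.

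Tnfsf10 had 1.17, 1.87 and 2.63 CPM in the fresh libraries of experiments A, B and C, 2.52 to 3.99 CPM (median 3.22) at airlift and 3.48 to 5.79 CPM (median 4.85) in day 4 controls. It rose step by step, although fresh and airlift libraries overlapped, as did airlift and day 4 control libraries. The log2 fold change was 0.80 ± 0.21 for airlift over fresh cells (SE; edgeR adjusted p = 0.0021; 1.28 with library totals alone), 0.53 ± 0.15 for day 4 control over airlift (edgeR adjusted p = 0.0056) and 1.33 ± 0.20 for day 4 control over fresh cells (edgeR adjusted p = 1.0e-05). Without experiment A the first of these was 0.42 and was not called (edgeR adjusted p = 0.056), and the second was 0.42 without experiment B (edgeR adjusted p = 0.089) and 0.43 without experiment C (edgeR adjusted p = 0.055).

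Fas had 20.1, 20.2 and 15.7 CPM in the fresh libraries of experiments A, B and C, 4.88 to 7.12 CPM (median 5.97) at airlift and 8.39 to 12.8 CPM (median 10.2) in day 4 controls, with no overlap between stages. Its log2 fold change was -1.61 ± 0.12 for airlift over fresh cells (SE; edgeR adjusted p = 1.1e-09) and 0.78 ± 0.10 for day 4 control over airlift (edgeR adjusted p = 4.2e-06). In NTHi cultures Fas, at 16.9 to 21.3 CPM, overlapped the fresh libraries.

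The receptors for TNF changed less. Tnfrsf1a had 134, 122 and 124 CPM in the fresh libraries of experiments A, B and C, 81.3 to 96.2 CPM at airlift and 104 to 117.8 CPM in day 4 controls, and Tnfrsf1b had 204, 189.6 and 182 CPM in the fresh libraries, 125 to 151 CPM at airlift and 142 to 206 CPM in day 4 controls. For both, airlift libraries lay below all fresh libraries, while only for Tnfrsf1b did day 4 control libraries overlap those of the other stages. The log2 fold changes for airlift over fresh cells were -0.47 ± 0.06 for Tnfrsf1a and -0.41 ± 0.09 for Tnfrsf1b (SE), and both were called. For day 4 control over airlift they were 0.30 ± 0.05 for Tnfrsf1a and 0.28 ± 0.07 for Tnfrsf1b (SE), called for both, the second not without experiment B (0.24; edgeR adjusted p = 0.055). The small falls for airlift over fresh cells depended on the scaling. By library totals alone, which puts the median of all genes at 0.49 in that comparison, they were 0.02 for Tnfrsf1a and 0.08 for Tnfrsf1b. For day 4 control over fresh cells Tnfrsf1a was then at 0.31 and Tnfrsf1b at 0.34 in place of -0.16 and -0.13. Relative to the median of all genes, both lay below it under either scaling.

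Tnfrsf12a had 611, 567.7 and 433 CPM in the fresh libraries of experiments A, B and C, 262 to 339 CPM at airlift and 282 to 365 CPM in day 4 controls. Fresh libraries were above all cultured ones, and the stages in culture overlapped. The log2 fold change was -0.80 ± 0.06 for airlift over fresh cells (SE; edgeR adjusted p = 2.7e-10; -0.31 with library totals alone, still called) and 0.11 ± 0.04 for day 4 control over airlift (edgeR adjusted p = 0.047). This small rise lost its call in 21 of 28 alternative settings.

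Ltb had 5.29, 3.14 and 2.53 CPM in the fresh libraries of experiments A, B and C, 1.98 to 2.29 CPM at airlift and 2.26 to 5.16 CPM in day 4 controls. Fresh libraries lay above airlift libraries, with experiment A the highest. The log2 fold change of -0.70 ± 0.22 for airlift over fresh cells (SE; edgeR adjusted p = 0.0077) was -0.45 and not called without the fresh library of experiment A (edgeR adjusted p = 0.12), and -0.21 and not called with library totals alone (edgeR adjusted p = 0.38). That of 0.66 ± 0.17 for day 4 control over airlift was called (edgeR adjusted p = 0.0034) but not without experiment A (0.44; edgeR adjusted p = 0.068). Cd40 had 9.93, 12.0 and 8.28 CPM in the fresh libraries, 5.46 to 10.6 CPM at airlift and 5.06 to 6.90 CPM in day 4 controls. Neighbouring stages overlapped. For airlift over fresh cells the log2 fold change of -0.30 ± 0.13 (SE) missed the threshold (edgeR adjusted p = 0.0502), for day 4 control over airlift it was -0.43 ± 0.11 (edgeR adjusted p = 0.0028; -0.28 and not called without experiment A, edgeR adjusted p = 0.075), and for day 4 control over fresh cells it was -0.73 ± 0.13 (edgeR adjusted p = 6.2e-05). With library totals alone the value for airlift over fresh cells was 0.18, and that for day 4 control over fresh cells was -0.26 and lost its call (edgeR adjusted p = 0.096).

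**Figure D5:**
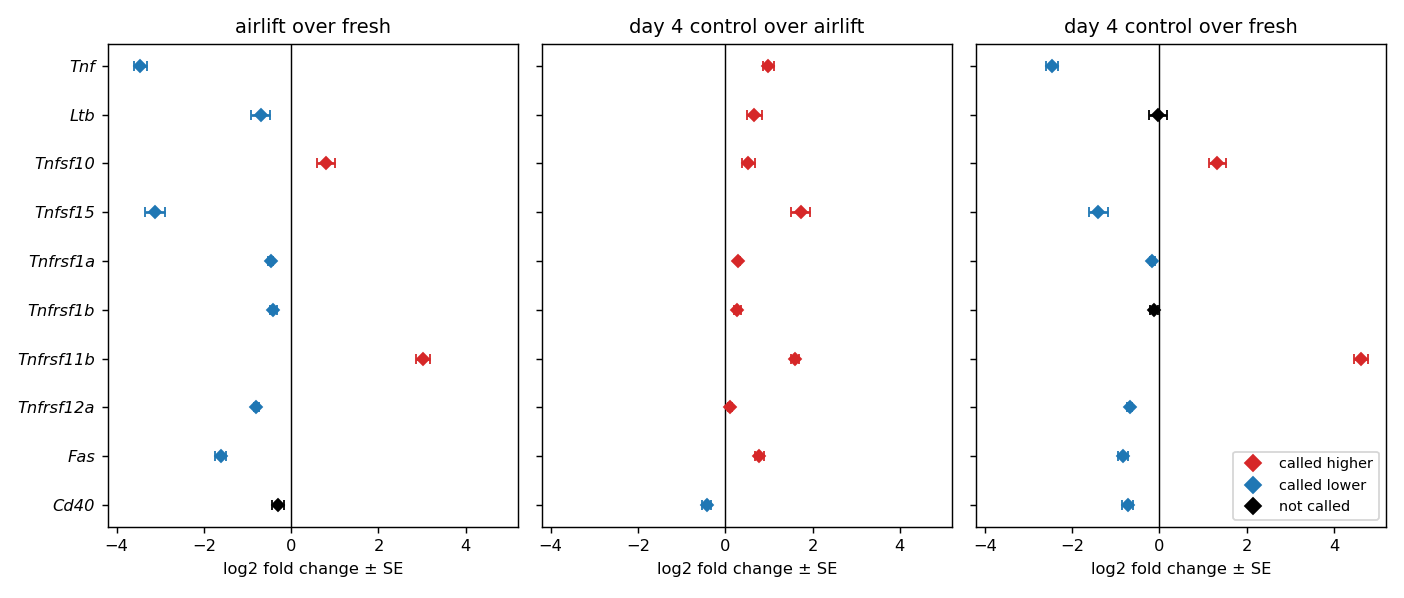
Log2 fold change of each member (bars are the SE) for airlift over fresh cells, day 4 control over airlift, and day 4 control over fresh cells, coloured by call. Tnf lies at -3.46, 0.99 and -2.47 in the 3 panels, and Tnfrsf11b at 3.01, 1.60 and 4.61.

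The pathway lists also split between airlift and fresh cells, beside 74.6% of all genes called. With scaling by library totals alone, all genes called in this comparison split into 10131 higher and 4223 lower, against 6928 and 6718 with TMM, and the list counts were not recomputed under it. Of 12 NF-kB and feedback genes, 10 fell and 2 rose: Nfkbia averaged 139 ± 14.2 CPM at airlift (SD, n = 6) and 639 ± 79.7 CPM in fresh cells (SD, n = 3), a log2 fold change of -2.19, and Tnfaip3 110.1 ± 6.05 CPM at airlift and 361 ± 77.4 CPM in fresh cells, a log2 fold change of -1.69. Of 11 death pathway genes, 8 rose, 2 fell and 1 was not called, among them Mlkl, at 19.1 ± 1.26 CPM at airlift and 2.48 ± 0.503 CPM in fresh cells (log2 fold change 2.95), and Bak1 (1.53). Of 18 adaptors and kinases, 9 rose, 7 fell and 2 were not called, with Ikbkg (the NEMO subunit of the IkB kinase; 1.88) and Fadd (the death receptor adaptor; 1.54) having the smallest p. Of 11 other ligands tested, 1 rose, 6 fell and 4 were not called, with Tnfsf9 (-2.09) and Tnfsf14 (LIGHT; -2.06) having the smallest p. Of 22 other receptors, 7 rose, 6 fell and 9 were not called, and Tnfrsf14 (HVEM, the receptor of LIGHT) averaged 19.2 ± 1.26 CPM at airlift and 4.43 ± 0.228 CPM in fresh cells (log2 fold change 2.13). Between airlift and day 4 control, beside 54.5% of all genes called, 5 of 11 other ligands, 9 of 22 other receptors, 2 of 18 adaptors and kinases, 1 of 12 NF-kB genes and 6 of 11 death pathway genes rose, and 2, 6, 10, 7 and 1 of them, in the same order, fell.

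Across the 23 libraries, the genes whose log2 CPM followed each member most closely among 11616 expressed genes were found by Pearson's r, which here mostly reflects the differences between the 4 groups and the libraries they share. The nearest genes were Myd88 for Tnf (r = 0.978), Mxd1 for Ltb (0.960), Csf1 for Tnfsf10 (0.980), Tgoln1 for Tnfsf15 (0.936) and Ccl3 for Tnfrsf1a (0.953). They were Trf for Tnfrsf1b (r = 0.979), Il18r1 for Tnfrsf11b (0.992), Klhl11 for Tnfrsf12a (0.937) and Il6 for Fas (0.981). Cd40 had no close neighbour, its nearest gene being Fbxw11 (r = 0.801). Sftpd was among the 3 nearest genes of both Tnf (0.970) and Fas (0.961), and Ifnar2 among those of both Ltb (0.947) and Tnfrsf1b (0.974).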

How the data were processed

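Bulk RNA sequencing libraries were grouped by their labels. The authors deposited raw counts per gene, whole numbers that are not normalised, in 3 tables, 1 per experiment; per the submitters' processing notes the tools were STAR and DESeq2 and the build GRCm39, while the counting tool and strand setting are unstated in the labels. Of 41098 lines per table, 25 were broken and were left out, which removed 6 genes, none of them a member. Between 69.3% and 74.9% of counts below 20 were even, so both reads of a pair may have been counted, and depth and precision are then lower than 32323375 to 39081663 counts per library imply. Same-group libraries of 1 experiment were set against each other on counts divided by 2: the chi-square per gene was 1.54 to 47.0, where sampling noise gives about 1, so each was counted as a library.

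Genes were kept by filterByExpr (minimum count 10) and tested with edgeR 4.0.16 in R 4.3.3 (TMM scaling, quasi-likelihood F-test, group and experiment as terms, Benjamini-Hochberg over all genes tested). NTHi and control were fitted on 14 libraries (16337 genes), and the untreated stages on 16 (18302 genes). The SE is the log2 fold change over the root of its F value. CPM values were calculated here from TMM-scaled totals of 23 libraries. Exon lengths came from an annotation of another build (GRCm38), and no member's exons overlapped another gene there.

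The members and gene lists were chosen with earlier results of these data known. Named were all 10 members; of each pathway list, up to 4 called genes with the smallest p for NTHi and up to 2 for airlift over fresh cells; and the 3 genes most like each member by Pearson's r among genes whose average log2 CPM reached 2. A gene that this rule gives is not reported here. Epcam, Adgre1, Lyz2, Ltf, Ly6g, Cxcr2, Ncr1, Col1a1, Pdgfrb, Dcn, Tnfrsf10b, Tnfsf11 and Casp8 were picked for mention after values were seen. Also named outside these rules were Mmp8, S100a8, S100a9, Csf3r, Retnlg, Camp and Tnfrsf22. The test was tried on simulated data. Alternatives were other scalings, no filter, DESeq2 1.42.0, no experiment term, sums per experiment, counts divided by 2, a replicate block, and leaving out experiments or libraries; leaving out the 2 libraries that stood apart was added after seeing the data.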

Additional observations from a re-analysis of the deposited data

Results flagged for a closer look

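Among 30 groups of 6 or 7 libraries, 2 held a library far from the rest of its group; chance flags about 1 in 20 groups. Tnfrsf11b in the NTHi group had its lowest value in experiment A replicate 1, at 614.4 CPM, with the nearest library at 674 CPM and the highest at 718 CPM. Cd40 in the NTHi group had its highest value in experiment B replicate 1, at 10.16 CPM, with the nearest library at 7.85 CPM and the lowest at 6.30 CPM.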

How the results depend on the processing

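The number of members called for NTHi over control was 7 to 9 over 26 alternatives, and 7 or 8 were called higher. Leaving out single libraries gave 0 to 1 member called lower, and leaving out the 2 libraries that stood apart gave 1 (Tnfsf15). With library totals alone, 3 other receptors were called higher, and all genes split into 2282 higher and 4416 lower (3281 and 3338 with TMM). For airlift over fresh cells, members called higher came to 1 without experiment A, and members called lower to 4 with library totals alone, where Tnfrsf1a (0.018) and Tnfrsf1b (0.079) reversed, Ltb lost its call (-0.21) and Cd40, not called, was at 0.18; all genes then split into 10131 higher and 4223 lower (6928 and 6718 with TMM). Ltb was also lost without experiment A (-0.32), and Cd40 was called in 11 of 27 alternatives. For day 4 control over airlift, members called lower came to 0 without experiment A, which lost Cd40 (-0.28) and Ltb (0.44); Tnfsf10 lost its call without experiment B (0.42) or C (0.43) and with sums per experiment (0.53), and Tnfrsf1b without experiment B (0.24). For day 4 control over fresh cells, library totals alone gave 4 members called higher, with Tnfrsf1a (0.31) and Tnfrsf1b (0.34) reversed and Cd40 lost (-0.26), and all genes split into 10149 higher and 4497 lower (7108 and 6904 with TMM). Tnfrsf1a was lost there without the fresh library of experiment A (-0.13) and without all of experiment A (-0.13). It was also lost without the filter (-0.10) and with sums per experiment (-0.12). Tnfrsf1b, not called in the main fit, was called lower without experiment C (-0.21). Beyond the shift by scaling, the cause was not tested.

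Replicate numbers did not pair the samples: residual correlations of same-numbered NTHi and control libraries ran from -0.354 to 0.074. With the replicate number as a block, no member's call changed: 8 members were called higher and 0 lower for NTHi, and 9 were called higher and 1 lower for day 4 control over airlift. No block was possible against fresh cells, which have 1 library an experiment. Depth limits the lowest values: Tnfsf15 at airlift rests on 38 to 84 counts a library, Ltb at airlift on 77 to 90, and Tnfsf10 in fresh cells on 32 to 76.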
